A study of Mus musculus with 12 samples.

Results

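The 38 genes described here encode proteins of epithelial cell junctions other than the claudins. They were taken by name from the 55376 genes of the count table, and the list sets no threshold on any measured value. They were grouped here by role. Tight junctions were given 5 membrane proteins and 10 scaffold or polarity proteins, and adherens junctions 6 membrane and 4 cytoplasmic proteins. The rest were 9 desmosomal proteins, and 4 genes for the hemidesmosome and the laminin it binds. RNA from the proximal portion of the mouse colon was sequenced in 6 EPR fl/fl mice and 6 EPR cKO mice, all 12 weeks old. EPR (Epithelial Program Regulator, listed as Smim31 in the annotation used) is a long non-coding RNA of epithelia that also holds a small reading frame, whose peptide is found at cell junctions. EPR fl/fl mice, the controls, carry loxP sites around the promoter and first exon of EPR and no Cre. EPR cKO mice are EPR fl/fl;CDX2P-NLS Cre, in which human CDX2 sequences drive Cre in epithelial cells from the distal ileum onward, through cecum and colon. The founders of the line were bred to C57BL/6 mice. Deletion was thus directed to the epithelium, whereas the RNA came from whole pieces of colon, in which smooth muscle and fibroblast genes were also measured.

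Epithelial cells are joined side to side by tight junctions, which seal the gap between cells, by adherens junctions, in which cadherins are tied to actin through catenins, and by desmosomes, in which desmosomal cadherins are tied to keratin through plakoglobin, plakophilins and plakins. Hemidesmosomes fix the basal side of the cell to laminin through the integrin made of the Itga6 and Itgb4 products. In the colon these structures keep the contents of the gut away from the tissue below. The question put to these genes was whether their RNA differed with EPR deletion, since the study examined mucosal permeability and stained junction proteins, and whether any difference was separate from the share of epithelium in each piece of tissue.

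The libraries held 13093904 to 33211041 counts assigned to genes. EPR itself had 297 to 1474 counts in the EPR fl/fl libraries and 0 to 10 in the EPR cKO libraries. The share of epithelium was described by an epithelial score, the mean log2 level of 26 epithelial genes minus the average of the mean log2 levels of marker lists for smooth muscle, fibroblasts, endothelium and enteric neurons and glia, no gene of which is among the 38. The score averaged 2.91 ± 0.24 (SD, n = 6) over the controls and 3.80 ± 1.14 over the EPR cKO libraries. It ran from 2.56 to 3.17 in the controls and from 1.82 in EPR cKO 1 to 4.89 in EPR cKO 5, so that EPR cKO 1 lay below, and the other 5 EPR cKO libraries above, every control. The groups differed by 0.90 on the log2 scale (two-sided exact permutation test over 924 assignments, p = 0.0866). Without EPR cKO 1 they differed by 1.295 (exact p = 0.00216, the smallest that 6 against 5 libraries can give). That p was fixed by leaving out the 1 EPR cKO library below the controls. With any other single library left out the exact p ran from 0.0866 to 0.171. The mean of the epithelial genes alone differed by 0.23 (exact p = 0.0216), and that of the other genes by −0.67 (exact p = 0.132). Of 26 epithelial genes, 24 had a positive log2 fold change and 1, Spint1, passed the test described below. In the same test 14 of the 26 were higher at an unadjusted p under 0.05. Of 8 goblet cell genes, 8 were lower and 6 passed, with the mucin gene Muc2 falling from 8027 CPM (counts scaled to a common library size) in the controls to 1760 in EPR cKO. Of the markers of smooth muscle, fibroblasts, endothelium, enteric neurons and glia, immune cells and adipocytes, 0 passed, and at an unadjusted p under 0.05 the 4 adipocyte genes alone differed, all lower. The 8 smooth muscle genes summed to 3199 to 5497 CPM in the controls and 1117 to 9428 CPM in EPR cKO. The 8 goblet cell genes summed to 13216 to 28354 and 6030 to 8402 CPM, and the part of these changes in the results below was not tested. In whole tissue, fewer cells of a type and less RNA per cell cannot be told apart.

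All 38 genes passed the filter on low counts. CPM were scaled by the trimmed mean of M values (TMM), and each gene was tested with edgeR's quasi-likelihood test, with Benjamini-Hochberg adjustment over all 15952 genes tested. An adjusted p under 0.05 is called past the threshold, and each mean is over 6 mice. With no covariate, 6 of the 38 were past the threshold. Jup, Pkp2, Pkp3, Evpl and Itgb4 were higher in EPR cKO, beside a background of 0.884% of all genes called higher, and Cgnl1 was lower, beside 1.57% called lower. At an unadjusted p under 0.05 the numbers were 16 higher and 1 lower of 38, beside 11.1% and 7.12% of all genes. Of the 26 epithelial genes, 14 were higher and 0 lower at that level. The median log2 fold change of the 38 was 0.17, beside 0.02 over all genes. A positive sign was seen in 34 of the 38, in 8430 of all 15952 genes and in 24 of the 26 epithelial genes. In 4 genes, Dsg2, Jup, Pkp3 and Itgb4, every EPR cKO library lay above every EPR fl/fl library, a pattern seen in 1.00% of all genes. The opposite pattern was seen in 0 of the 38 and in 1.47% of all genes.

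The number past the threshold turned on single libraries, as it did over all genes, of which 2.46% passed in either direction with all 12. Without EPR cKO 1 it became 14, of which 13 were higher, and the share of all genes that passed became 21.8%. It was 2 without EPR fl/fl 1, EPR fl/fl 3 or EPR cKO 6, 3 without EPR fl/fl 5 or EPR cKO 5, and 1 without EPR fl/fl 4, EPR cKO 2 or EPR cKO 3, with 1.11% to 1.71% of all genes passing in those fits. Itgb4 was the 1 gene past the threshold with each of the 12 libraries left out in turn (adjusted p 0.00251 to 0.0318).

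Desmosomal genes had the highest median log2 fold change of the 6 groups, 0.32, with 9 of 9 positive. The median of the 26 epithelial genes was 0.27, with 24 positive. Of the desmosomal genes, 4 were past the threshold and 8 were higher at an unadjusted p under 0.05. Beside them stand 0.884% and 11.1% of all genes. The 4 desmosomal genes past the threshold are described in turn. Jup encodes plakoglobin, the catenin that joins desmosomal cadherins to the plaque and that also binds classical cadherins, and lies at chr11:100370619-100397749 on the minus strand of mm10. Its level in the EPR fl/fl libraries 1 to 6 was 194, 207, 193, 192, 221 and 227 CPM, and in the EPR cKO libraries 1 to 6 it was 232, 298, 306, 244, 267 and 297 CPM. The lowest EPR cKO library stood just above the highest control. Jup had a log2 fold change of 0.41 (SE 0.084) with an adjusted p of 0.0219, and the adjusted p passed 0.05 without EPR fl/fl 1, 3 or 4 or EPR cKO 2, 3 or 6, reaching at most 0.0771.

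Pkp3 encodes a plakophilin, a plaque protein that links desmosomal cadherins to desmoplakin, and lies at chr7:141078218-141090510. Its level was lowest at 55.8, with a median of 74.2 and a highest value of 83.0 CPM in EPR fl/fl, against 85.1, 107 and 118 CPM in EPR cKO. The groups did not overlap, and Pkp3 had a log2 fold change of 0.51 (SE 0.106) with an adjusted p of 0.0244. Without EPR fl/fl 1 or 4 or EPR cKO 2, 3, 5 or 6 the adjusted p was above 0.05, at most 0.0832. Its paralog Pkp2, at chr16:16213318-16272712, had 47.3, 49.2 and 53.4 CPM (lowest, median, highest) in EPR fl/fl and 51.1, 62.7 and 66.5 CPM in EPR cKO. EPR cKO 1, at 51.1 CPM, was the single EPR cKO library inside the range of the controls. For Pkp2 the log2 fold change came to 0.30 (SE 0.070), with an adjusted p of 0.0392. That call held with 1 library left out only for EPR cKO 1, with an adjusted p up to 0.135 for the other 11.

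Evpl encodes envoplakin, a plakin known from desmosomes and the cornified envelope of stratified epithelia. Its level was 66.7 CPM in EPR fl/fl 1 and 37.95 to 44.28 CPM in the other 5 controls, against 61.5, 68.8 and 93.2 CPM (lowest, median, highest) in EPR cKO. EPR fl/fl 1 thus lay among the EPR cKO libraries, while the remaining controls lay below all of them. Its log2 fold change of 0.67 (SE 0.146) had an adjusted p of 0.0292 and was the largest rise among the 38. The adjusted p was above 0.05 without EPR fl/fl 2, 3, 4, 5 or 6 or EPR cKO 2 or 3, at most 0.0804, and without EPR fl/fl 1 the log2 fold change was 0.80.

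The other 5 desmosomal genes did not pass the threshold. Dsg2 and Dsc2 encode the desmosomal cadherins of simple epithelia. Dsg2 was at 505 to 577 CPM in the controls and 595 to 694 CPM in EPR cKO, with no overlap and a log2 fold change of 0.24 (adjusted p = 0.0653). Dsc2 was at 330 ± 43.1 CPM (SD, n = 6) and 438 ± 55.7 CPM, a log2 fold change of 0.41 (adjusted p = 0.0657). Dsp, for desmoplakin, which ties the plaque to keratin, was the most abundant of the group at 808 and 995 CPM and had a log2 fold change of 0.30 (adjusted p = 0.0821). Ppl, for periplakin, the partner of envoplakin, was at 17.8 and 22.2 CPM (log2 fold change 0.32, adjusted p = 0.172), and Pkp4 at 74.9 and 82.5 CPM (0.14, adjusted p = 0.371). Without EPR cKO 1, Dsg2, Dsc2 and Dsp were past the threshold (adjusted p 0.0318, 0.00951 and 0.0179), as were 21.8% of all genes, and without EPR fl/fl 2 so were Dsc2 and Dsp (0.0412 and 0.0447), with 2.22% of all genes.

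Among the hemidesmosomal genes, Itgb4, for the integrin chain whose long cytoplasmic tail binds plectin, had the smallest adjusted p of the 38. It lies at chr11:115974709-116008412 on the plus strand of mm10. Its level was 136, 151, 135, 134, 128 and 147 CPM in EPR fl/fl 1 to 6 and 189, 219, 214, 179, 158 and 204 CPM in EPR cKO 1 to 6. The highest control was below the lowest EPR cKO library, giving a log2 fold change of 0.48 (SE 0.083) and an adjusted p of 0.00819. An antisense gene, B230344G16Rik, covers 8.41% of its exon bases. Evpl lies on the same chromosome, at chr11:116220559-116238077 on the minus strand. Itga6, the partner chain of Itgb4, was at 217 ± 29.9 CPM (SD, n = 6) and 242 ± 43.1 CPM, with overlapping groups and a log2 fold change of 0.16 (adjusted p = 0.507). Lamb3 and Lama3, 2 chains of the laminin to which this integrin binds, had log2 fold changes of 0.22 (adjusted p = 0.115) and 0.18 (adjusted p = 0.609). Of the 12 fits with 1 library left out, Lamb3 passed only in that without EPR cKO 1 (adjusted p = 0.0300), as did 21.8% of all genes.

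**Figure D1:**
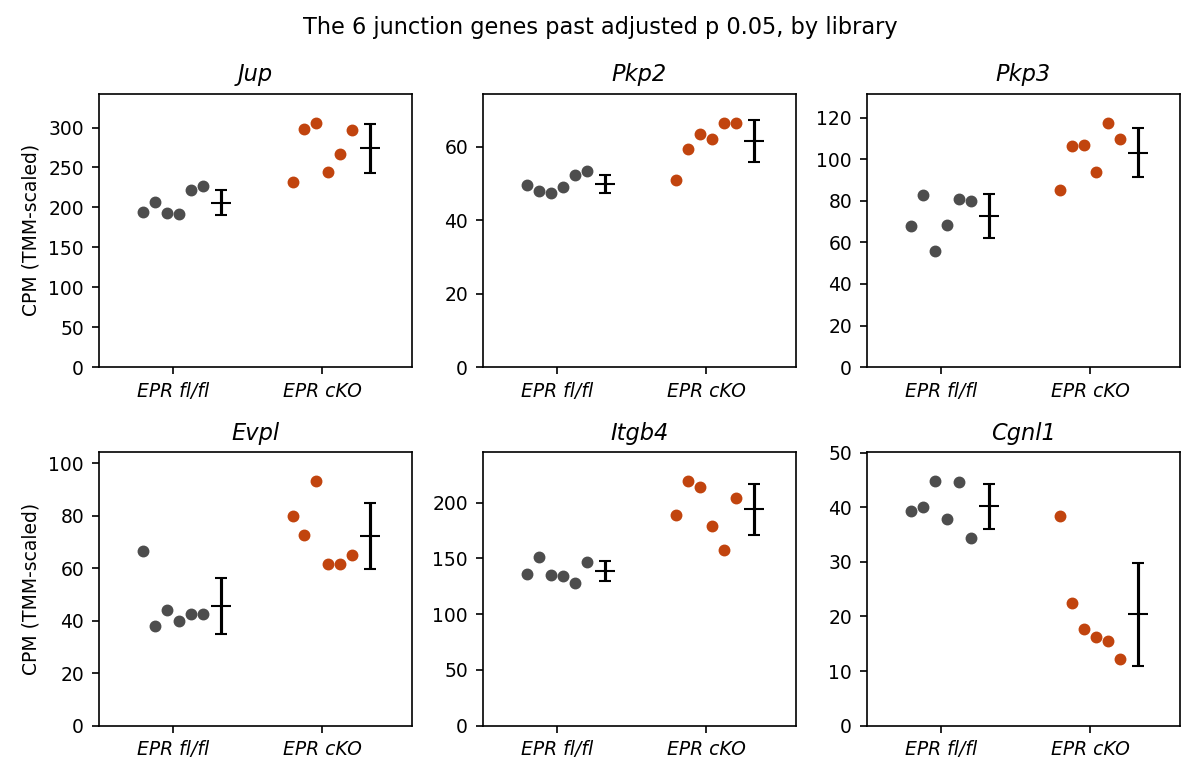
Level in CPM (y axis, from 0) of the 6 junction genes past an adjusted p of 0.05 in each of the 6 EPR fl/fl and 6 EPR cKO libraries (points, in the order of their replicate numbers), with the group mean and 1 SD at the right of each group. Jup, Pkp3 and Itgb4 do not overlap between groups, EPR fl/fl 1 stands high for Evpl at 66.7 CPM, and EPR cKO 1 stands at 38.4 CPM for Cgnl1, inside the range of the controls.

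Cgnl1 was the 1 member that fell. It encodes paracingulin, a coiled-coil protein at the cytoplasmic face of tight and adherens junctions, and lies at chr9:71626509-71771602 on the minus strand. Its level was 39.3, 40.1, 44.8, 37.8, 44.7 and 34.3 CPM in EPR fl/fl 1 to 6 and 38.4, 22.4, 17.7, 16.3, 15.5 and 12.2 CPM in EPR cKO 1 to 6. Every EPR cKO library but EPR cKO 1 was below all controls. Cgnl1 had a log2 fold change of −0.98 (SE 0.226) with an adjusted p of 0.0393, the largest in size among the 38, and −1.27 (adjusted p = 0.000146) without EPR cKO 1. The call was kept without EPR cKO 1 or EPR fl/fl 6 and lost without any of the other 10 libraries, with an adjusted p of at most 0.0941. The paralog Cgn, for cingulin, was at 154 ± 10.8 CPM (SD, n = 6) in the controls and 166 ± 17.3 CPM in EPR cKO, a log2 fold change of 0.11 (adjusted p = 0.455). Of the stretches of 50 bases in Cgn transcripts, 17.2% also occur in another annotated gene, so its level is less certain than that of Cgnl1. The same share was 56.74% for Ctnnd1, 12.25% for Ctnnb1 and 6.78% for Cxadr, and at most 5.31% for every other member.

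Upstream sequences from RefSeq (GRCm38.p6) matched 22 of the 38 genes by symbol. Those of Jup and Cgnl1, the called members with a match, and of Cgn, the paralog that did not move with Cgnl1, are shown. Each is the 250 bases before the start site, 5′ to 3′ on the strand of the gene, with the letters GGGCGG, the core of the GC box bound by Sp and KLF factors, in capitals on either strand. Cgnl1 is from chr9:71771603-71771852, Cgn from chr3:94786483-94786732 and Jup from chr11:100397791-100398040, all on the minus strand.
Cgnl1: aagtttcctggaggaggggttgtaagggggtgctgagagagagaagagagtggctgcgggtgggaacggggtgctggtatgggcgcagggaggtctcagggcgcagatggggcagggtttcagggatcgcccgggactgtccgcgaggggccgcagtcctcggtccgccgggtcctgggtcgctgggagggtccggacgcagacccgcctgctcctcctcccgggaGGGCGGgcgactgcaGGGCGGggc
Cgn: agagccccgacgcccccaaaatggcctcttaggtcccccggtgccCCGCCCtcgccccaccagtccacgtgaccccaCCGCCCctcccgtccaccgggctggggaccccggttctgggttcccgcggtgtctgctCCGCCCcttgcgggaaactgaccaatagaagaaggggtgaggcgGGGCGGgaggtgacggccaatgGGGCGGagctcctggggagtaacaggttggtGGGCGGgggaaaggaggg
Jup: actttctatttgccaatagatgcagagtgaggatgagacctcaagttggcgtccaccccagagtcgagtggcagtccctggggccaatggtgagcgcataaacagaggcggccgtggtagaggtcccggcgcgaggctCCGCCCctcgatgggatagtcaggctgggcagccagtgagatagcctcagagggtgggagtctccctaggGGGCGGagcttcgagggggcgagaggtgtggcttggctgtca

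The GC box letters occur 2 times upstream of Cgnl1, 6 times upstream of Cgn and 2 times upstream of Jup. They occur upstream of 32.7% of all 32851 listed start sites of the same length and of 22 of the 33 listed for the members. The windows of Cgnl1 and Cgn hold 70.8% and 70.4% G or C, and that of Jup 62.0%, beside a median of 52.4%. Neither TGANTCA, the AP-1 site, nor CACCTG, the E-box form bound by Snail and ZEB repressors, was found in these 3 windows on either strand. They occur upstream of 6.75% and 17.2% of all listed start sites, and of 2 and 12 of the 33 of the members. None of the 3 motifs overlaps another in the windows shown.

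The other tight junction scaffolds showed no member past the threshold. Tjp1 encodes ZO-1, which ties tight junction membrane proteins to actin. By immunofluorescence of tissue sections the paper reported lower ZO-1 protein in EPR cKO, a measure unlike the RNA level given here. Tjp1 RNA was at 177, 188, 168, 160, 156 and 165 CPM in EPR fl/fl 1 to 6. In EPR cKO 1 to 6 it was at 213, 188, 166, 170, 153 and 170 CPM. The groups overlapped, with EPR cKO 1 highest of all 12. The log2 fold change was 0.06 with a 95% interval from −0.11 to 0.24 (adjusted p = 0.689), and it was −0.01 without EPR cKO 1. Tjp3, for ZO-3, was at 212 and 248 CPM (log2 fold change 0.23, adjusted p = 0.272). Of the 12 fits with 1 library left out, Tjp3 passed only in that without EPR cKO 1 (adjusted p = 0.0320), as did 21.8% of all genes. Of the polarity proteins that set the apical border, Pard6b had a log2 fold change of 0.23 (adjusted p = 0.364), Patj 0.11 (0.448), Mpp5, for PALS1, 0.11 (0.547) and Pard3 −0.03 (0.799). The scaffold kinase homologs Magi1 and Magi3 had −0.05 (adjusted p = 0.738) and 0.13 (0.489).

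The 5 membrane proteins of the tight junction had log2 fold changes from 0.02 to 0.19 and adjusted p values from 0.265 to 0.902. Ocln, for occludin, was at 130 ± 8.89 CPM (SD, n = 6) in the controls and 136 ± 10.3 CPM in EPR cKO, and the interval of its log2 fold change ran from −0.08 to 0.22. Marveld2, for tricellulin, which closes the corners where 3 cells meet, and Marveld3 belong to the same family and had log2 fold changes of 0.14 and 0.19. F11r, for the adhesion molecule JAM-A, was at 175 and 187 CPM, and Cxadr, an adhesion protein and virus receptor, at 379 and 385 CPM. A log2 fold change of 0.41 such as that of Jup lay outside the intervals of all 5.

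The 10 genes grouped here with adherens junctions, Epcam and Cdh17 among them, included the most abundant of the 38, and none passed the threshold. Cdh1, for E-cadherin, was at 814, 771, 851, 720, 664 and 836 CPM in EPR fl/fl 1 to 6 and 684, 931, 950, 811, 844 and 971 CPM in EPR cKO 1 to 6. EPR cKO 1 was second lowest of the 12, next to EPR fl/fl 5. Its log2 fold change was 0.16 with an interval from −0.06 to 0.37 (adjusted p = 0.415). Cdh17, for the intestinal cadherin, was at 819 ± 128 and 1027 ± 162 CPM (SD, n = 6), a log2 fold change of 0.33 (adjusted p = 0.205). Epcam, an adhesion protein that marks epithelia, was at 1287 ± 123 and 1480 ± 207 CPM (0.20, adjusted p = 0.339). Of the nectins, Nectin3 had a log2 fold change of 0.23 (adjusted p = 0.109), Nectin2 of 0.04 (0.878) and Nectin1 of −0.05 (0.831). Ctnnb1, for β-catenin, which joins cadherins to α-catenin and also acts in Wnt signalling, was at 850 and 1015 CPM (0.26, adjusted p = 0.137). Ctnna1, for α-catenin, had 0.18 (adjusted p = 0.246), Ctnnd1, for p120-catenin, 0.16 (0.377) and Afdn, for the nectin-bound actin linker afadin, 0.02 (0.916). Without EPR cKO 1, Nectin3, Ctnnb1 and Ctnnd1 were past the threshold (adjusted p 0.0171, 0.0234 and 0.0425), as were 21.8% of all genes. A read-through gene on the same strand, Gm28635, covers 69.7% of the exon bases of Ctnnd1, so the level of Ctnnd1 is less certain.

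**Figure D2:**
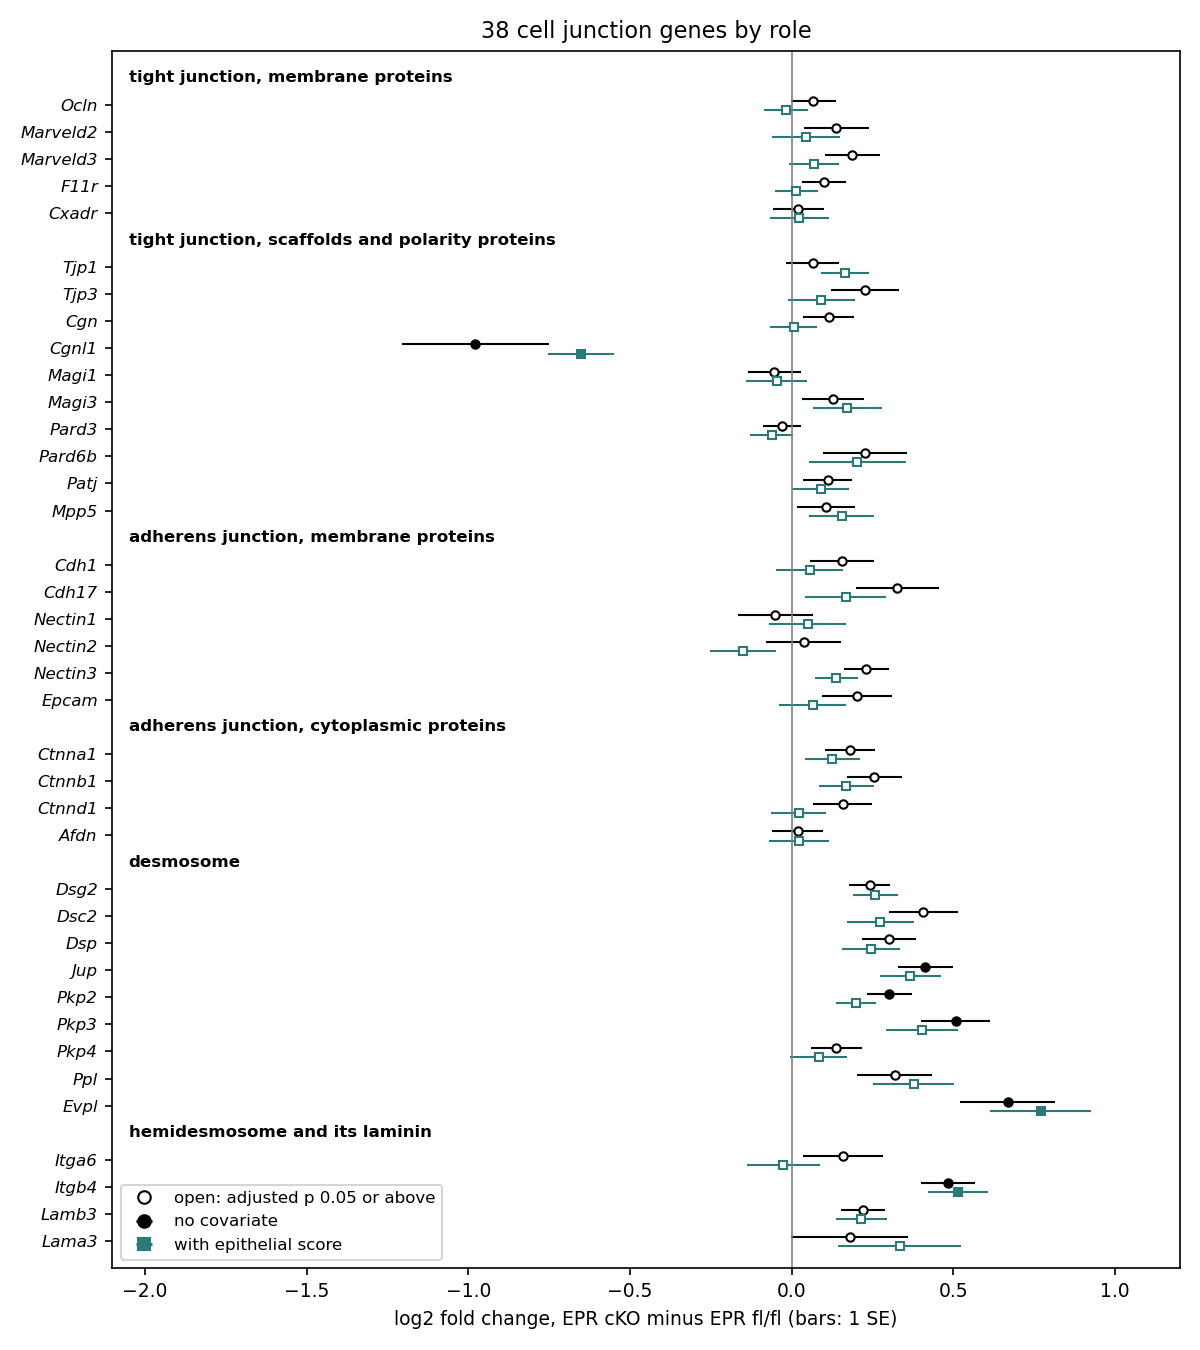
Log2 fold change of EPR cKO over EPR fl/fl (x axis, bars 1 SE) for each of the 38 genes, grouped by role, with no covariate (circles) and with the epithelial score in the model (squares). Filled symbols are past an adjusted p of 0.05. All 9 desmosomal genes lie right of 0 in both fits, and Cgnl1 lies apart on the left at −0.98 and −0.65.

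Per kilobase of exon, the levels in EPR fl/fl spanned from 624 CPM per kb for Epcam to 2.87 for Ppl. Ctnnb1 (235), Cdh17 (183), Cdh1 (175), Ctnna1 (115) and Dsp (84.2) followed Epcam. Cdh17 and Cdh1 did not differ beyond their spread, with overlapping libraries. At the low end, Cgnl1 was at 5.55, Nectin1 at 3.07 and Ppl at 2.87 CPM per kb, and the ranges of Nectin1 and Ppl overlapped. In EPR cKO, Cgnl1 was at 2.82 CPM per kb, beside Nectin1 and Ppl at 2.96 and 3.58, and its libraries, from 1.69 to 5.31, overlapped those of both. Itgb4 went from 21.7 to 30.4 CPM per kb and Jup from 63.9 to 85.1, each within the middle of the range.

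**Figure D3:**
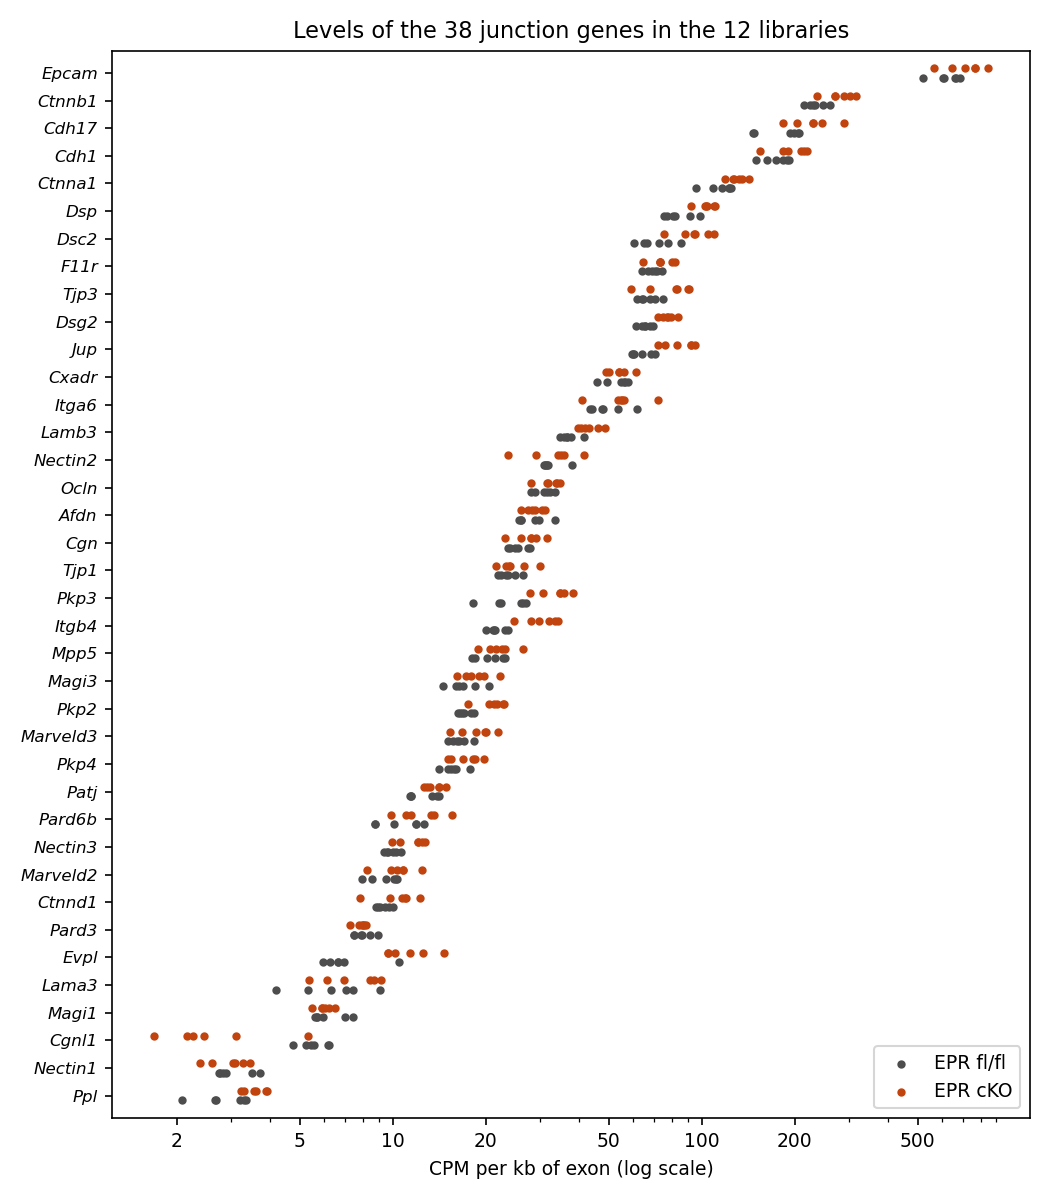
Level per kilobase of exon (x axis, log scale) of the 38 genes, ordered by the EPR fl/fl mean, with 1 point for each of the 6 EPR fl/fl and 6 EPR cKO libraries. The levels span from Epcam at 624 to Ppl at 2.87 CPM per kb in EPR fl/fl, and 5 of 6 EPR cKO libraries lie left of all controls for Cgnl1.

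With the epithelial score as a covariate, 3 of the 38 were past the threshold. Evpl (log2 fold change 0.77 ± 0.157 SE, adjusted p = 0.0197) and Itgb4 (0.51 ± 0.094 SE, adjusted p = 0.0115) were higher, beside 0.483% of all genes, and Cgnl1 (−0.65 ± 0.103 SE, adjusted p = 0.00460) was lower, beside 1.71%. Jup, Pkp3 and Pkp2 kept a positive sign at 0.37, 0.40 and 0.20 but had adjusted p values of 0.0677, 0.0832 and 0.123. For Tjp1 and Cdh1 the log2 fold changes were 0.17 (adjusted p = 0.315) and 0.06 (0.865). The median over the 38 was 0.11, and over the 9 desmosomal genes 0.27. These calls leaned on EPR cKO 1, the library with the lowest score. Without it 0 of 38 passed edgeR's test, with 7 higher and 1 lower at an unadjusted p under 0.05, and over all genes the share that passed went from 2.19% to 0.158%. The log2 fold changes of Itgb4, Evpl and Cgnl1 were then 0.67, 0.90 and −0.78 (adjusted p 0.106, 0.304 and 0.106). Without EPR cKO 2, Cgnl1 alone passed, Itgb4 standing at an adjusted p of 0.0507 and Evpl at 0.0522, and without EPR fl/fl 4 Evpl was at 0.0675.

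The slope on the score, within genotype, was past the threshold for 7 of the 38. It was positive for Marveld3, Nectin2, Ctnnd1, Pkp2 and Itga6, beside 12.8% of all genes, and negative for Tjp1 and Cgnl1, beside 18.7%. Cgnl1 had the steepest slope of the 38, −0.47 log2 units per unit of score (adjusted p = 2.6e-05). The 26 epithelial genes had a median slope of 0.13, with 25 positive. Endothelial genes had a median of −0.52 and smooth muscle genes −1.02, with 0 positive in either list. Which cells the Cgnl1 RNA came from was not tested. The level of Cgnl1 was highest among the EPR cKO libraries in EPR cKO 1, with the lowest score. It was lowest in EPR cKO 6, with a score of 4.77. In the 6 controls, whose scores spanned from 2.56 to 3.17, it stayed between 34.3 and 44.8 CPM. Tjp1 had a slope of −0.12 (adjusted p = 0.0427), and Itgb4 one of −0.04 (adjusted p = 0.671). Without EPR cKO 1 the slope of Cgnl1 was the 1 past the threshold, at −0.39 (adjusted p = 0.0444), and 6.24% of all genes passed, against 31.5% with all libraries. Leaving out other single libraries gave from 2 slopes past the threshold, without EPR cKO 5, to 11, without EPR fl/fl 5 or 6, with 4 without EPR fl/fl 3, while 26.4% to 34.6% of all genes passed in these fits.

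**Figure D4:**
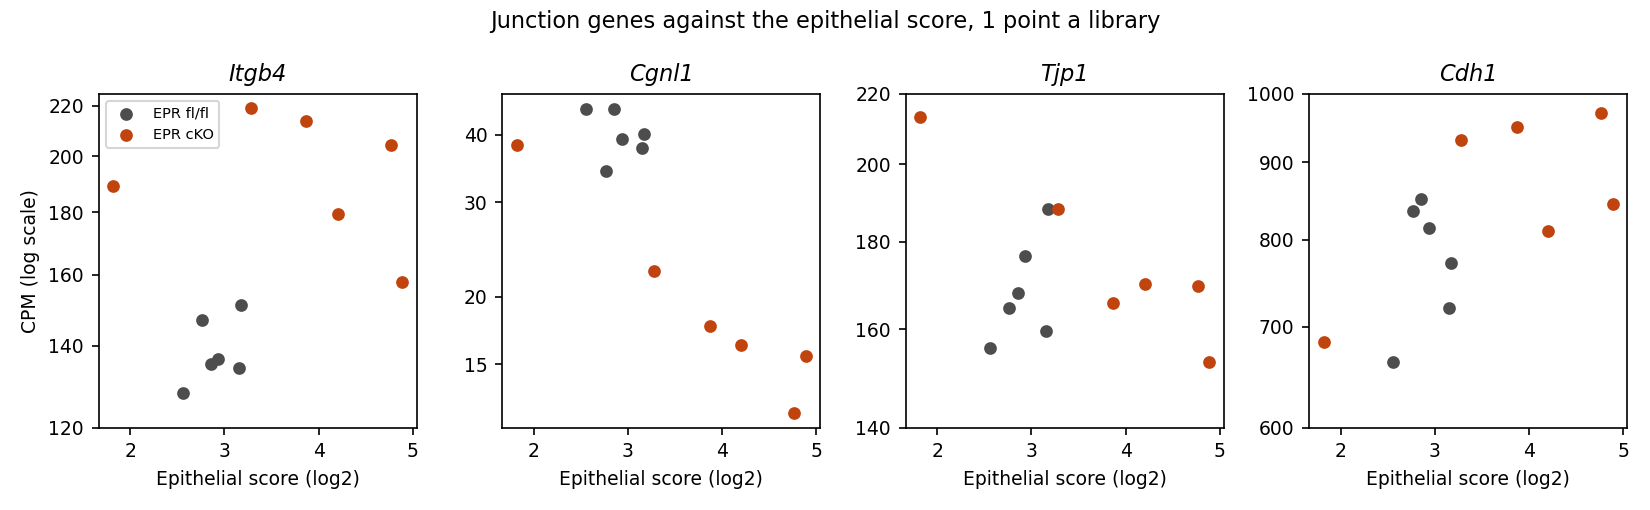
Level in CPM (y axis, log scale) of Itgb4, Cgnl1, Tjp1 and Cdh1 against the epithelial score (x axis, log2) in each of the 12 libraries. At scores near 3 the EPR fl/fl libraries cluster, Itgb4 is higher in all EPR cKO libraries at any score, and Cgnl1 falls across the EPR cKO libraries from 38.4 CPM at a score of 1.82 to 12.2 CPM at 4.77.

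The epithelial genes were themselves higher in EPR cKO, with a median log2 fold change of 0.27. When library sizes were scaled to the 26 epithelial genes in place of all genes, the median log2 fold change over all genes moved from 0.02 to −0.20. On that scale 0 of the 38 passed edgeR's test, with 5 higher and 6 lower at an unadjusted p under 0.05, and 610 of all genes, or 3.82%, passed. The median over the 38 was −0.06, with 12 positive in place of 34. Itgb4, Evpl and Pkp3 were at log2 fold changes of 0.27, 0.46 and 0.28 (adjusted p 0.173, 0.153 and 0.0884), Jup at 0.18 (0.183), Pkp2 at 0.07 (0.443), and Cgnl1 at −1.14 (0.0566). The median of the desmosomal genes was 0.10, with 8 of 9 positive, and that of the tight junction membrane proteins −0.13, with 5 of 5 negative. Tjp1 and Cdh1 had negative signs on that scale, −0.14 (adjusted p = 0.534) and −0.08 (0.549). With the mean of the epithelial genes as the covariate in place of the score, 0 of 38 passed, with 10 higher and 2 lower at an unadjusted p under 0.05, and Itgb4 was at 0.47 (adjusted p = 0.0667). The part of the epithelial share in the differences of the desmosomal genes was not tested beyond these fits.

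Ratios of 2 members within a library do not depend on library size. For 9 pairs of paralogs or partners the log2 ratio was compared between genotypes by two-sided exact permutation tests, of which none was below 0.05 after Benjamini-Hochberg adjustment over the 9. Cgnl1 relative to Cgn went from −1.94 ± 0.18 (SD, n = 6) to −3.12 ± 0.68, a difference of −1.18 (exact p = 0.0108, adjusted 0.0974). Pkp3 relative to Pkp2 differed by 0.22 (exact p = 0.0260, adjusted 0.110) and Jup relative to Ctnnb1 by 0.16 (exact p = 0.0368, adjusted 0.110). The differences were 0.33 for Itgb4 over Itga6 (exact p = 0.0519), 0.34 for Evpl over Ppl (exact p = 0.0909), 0.17 for Dsc2 over Dsg2 (exact p = 0.180), 0.17 for Magi3 over Magi1 (exact p = 0.232), 0.15 for Tjp3 over Tjp1 (exact p = 0.394) and 0.02 for Lamb3 over Lama3 (exact p = 0.896).

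Other junction genes were tested in the same way. Of 10 claudins, 0 were higher and 1 was lower with edgeR, beside 0.884% and 1.57% of all genes. At an unadjusted p under 0.05, 2 claudins were higher and 1 was lower, beside 11.1% and 7.12% of all genes. The claudin past the threshold was Cldn8, a barrier-forming claudin of the colon, at 18.6 and 7.48 CPM (log2 fold change −1.32, adjusted p = 0.0150). Of 50 further junction genes, 12 were higher and 2 lower at an unadjusted p under 0.05. Those past the threshold included Perp, a membrane protein of desmosomes, at 210 and 288 CPM (0.46, adjusted p = 0.0280). Nectin4, also past it, was at 2.29 and 1.15 CPM (−0.98, adjusted p = 0.0340). With the score as covariate, Plec, for plectin, the partner of the Itgb4 chain in the hemidesmosome, was higher (0.54, adjusted p = 0.0115), as was Vcl, for vinculin (0.32, adjusted p = 0.0408), while Lsr, a protein of tricellular junctions, was lower (−0.56, adjusted p = 0.0356) and so was Cldn8 (−1.44, adjusted p = 0.0239).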

How the data were processed

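The authors prepared ribosome-depleted, stranded total RNA libraries from 12 colon samples, sequenced them in pairs, aligned the reads to mm10 with STAR 2.5.3a and counted them per gene with featureCounts on an Ensembl GRCm38 annotation. The deposited values are raw counts. The strand setting of the counting is not given in the sources used here. The members and gene lists were chosen with earlier results of these data known. All 38 members are named, of the other junction genes those called, up to 3 each way, except 1 result that is not reported here. Genes with at least 1 CPM in at least 4 libraries (15952 of 36694 with counts) were scaled by TMM and tested in edgeR 4.0.16 (R 4.3.3) with glmQLFit and glmQLFTest, with genotype alone or with genotype and the epithelial score. Each genotype had 6 mice, and the p-values measure the spread between them. The common biological coefficient of variation was 26.1%. SEs on the log2 scale had a median of 0.08 for members and 0.14 for all genes. No 2 libraries of a group agreed within sampling noise. The code was tested on simulated data. DESeq2 1.42.0, limma 3.58.1, other scalings and left-out libraries were alternatives. Shared replicate numbers did not pair the mice (correlations of deviations −0.24 to 0.34). Motifs were counted in RefSeq sequences.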

Additional observations from a re-analysis of the deposited data

Results flagged for a closer look

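Of 78 sets of 6 values examined, the levels of each of the 38 genes and the score in each genotype, 2 held a library far from the other 5 by Dixon's test at the 95% level, where chance gives about 3.9. Nectin2 was at 130.6 CPM in EPR fl/fl 6 and at 106.5 to 109.5 CPM in the other controls. Evpl was at 66.71 CPM in EPR fl/fl 1 and at 37.95 to 44.28 CPM in the other controls.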

How the results depend on the processing

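With 13093904 to 33211041 counts a library, every member had at least 216 counts in each. The parts of counting error and of the spread between mice in the precision were not separated. Of the 6 members past the threshold, Itgb4, Evpl and Cgnl1 stayed past it under 6 other settings without the score. They did not with library sizes scaled to the epithelial list, also fitted without the score, where 0 of the 38 passed beside 3.82% of all genes. The number past the threshold was 3 with total counts in place of TMM and 12 with the DESeq2 Wald test, and from 1 to 14 with 1 library left out. The share of all genes past it, 2.46% as reported, was 1.79%, 5.74% and from 1.11% to 21.8%. With the score the number of members past it was 6 with the DESeq2 Wald test and 0 with the score from the epithelial list alone. It was from 0 to 3 with 1 library left out. The shares of all genes were 5.32%, 1.11% and 0.158% to 3.04%. Slopes past the threshold numbered 3 with DESeq2 size factors, 4 with total counts, 3 without the low-count filter, 11 with the epithelial list alone, 4 with the non-epithelial lists alone, and from 1 to 11 with 1 library left out, beside 30.6%, 29.7%, 13.5%, 32.0%, 29.7% and 6.24% to 34.6% of all genes. The difference in score ran from 0.681 to 1.295 with 1 library left out.

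A replicate block rests on shared numbers only, since 2 of 6 numbers correlated best with their own. With it, 5 of the 38 were past the threshold without the score (Pkp2 was not, adjusted p = 0.0753). With the score 2 were past it, and by slope 3. The shares of all genes were 1.54%, 1.29% and 18.1%.

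With library sizes scaled to the epithelial list, 12 of the 38 log2 fold changes were positive, against 34 as reported. Other signs turned as follows. With total counts, Cxadr was at −0.0119 and Afdn at −0.01355, and without the filter Afdn was at −0.00619. With 1 library left out, log2 fold changes ran from −0.0188 to 0.0472 for Cxadr, −0.0131 to 0.0721 for Afdn, −0.0135 to 0.103 for Tjp1, −0.0875 to 0.00282 for Magi1, −0.0572 to 0.00257 for Pard3, −0.114 to 0.00683 for Nectin1 and −0.0362 to 0.1015 for Nectin2. With the score, Cdh1 was at −0.0331 with the epithelial list alone and from −0.0164 to 0.237 with 1 library left out. With sizes scaled to the list and no score in the model, Cdh1 was at −0.0790 and Tjp1 at −0.138. The slope of Ctnnd1 ran from −0.00454 to 0.175 and the ratio of Lamb3 to Lama3 from −0.0587 to 0.123. The cause of these changes was not tested. The left-out runs of the ratios were added after the data were seen.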
